A study of Arabidopsis thaliana with 26 samples.

Results

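CCA1, LHY and the REVEILLE genes RVE1 to RVE8 form a family of 10 transcription factors of the Arabidopsis circadian clock. They were taken by identifier from the 33977 genes counted: CCA1 (AT2G46830), LHY (AT1G01060), RVE1 (AT5G17300), RVE2 (AT5G37260), RVE3 (AT1G01520), RVE4 (AT5G02840), RVE5 (AT4G01280), RVE6 (AT5G52660), RVE7 (AT1G18330) and RVE8 (AT3G09600). The reference annotation lists RVE4 and RVE7 under the first names LCL1 and EPR1, with the RVE names as synonyms. It names RVE3 ASG4 and gives no symbol for RVE5 and RVE6, so the symbols of these 3 rest on the identifiers alone. All 10 genes passed the filter on low counts.

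Every member carries a single MYB-like domain that binds DNA. CCA1 and LHY are made around dawn and repress genes that are expressed in the evening, many of which carry a short promoter sequence called the evening element. RVE8 and its relatives RVE3, RVE4, RVE5 and RVE6 bind the same element, and RVE4, RVE6 and RVE8 are known to activate evening genes together with the LNK coactivators. RVE1, RVE2 and RVE7 act mainly downstream of the clock, with RVE1 promoting auxin production by day.

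RNA was sequenced from whole Columbia-0 plants with root, 10 days old, grown on agar medium. The 4 groups were the memory line on 100 µM 5-azacytidine (2 biological replicates), the memory line without it (2), wild type on 100 µM 5-azacytidine (3) and wild type without it (3). 5-azacytidine is a cytosine analogue that lowers DNA methylation. The memory line is labelled as an msh1 line. Such lines come from transgenic parents with suppressed MSH1, which encodes an organelle protein that acts on plastid and mitochondrial DNA. The labels give neither the number of parent plants nor the number of plants pooled per replicate, and are silent on separate growth of the replicates. The p-values therefore cover the spread among these samples alone, which may be technical. The labels also do not give the hour of harvest. For a gene that cycles over the day, a lower level and a shifted phase cannot be told apart at a single harvest, and in whole plants neither can fewer cells of a type and less RNA per cell.

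Each biological replicate was the sum of 2 or 3 technical libraries of its RNA, 26 libraries in all, and held between 11412839 and 13544859 gene counts. MSH1 itself was expressed in every replicate, at 8.67 to 20.4 CPM (counts per 1000000 gene counts), and was called in no comparison. Root and green shoot markers were present in all replicates, and the 3 flower markers summed to at most 0.646 CPM. The 5 green shoot markers summed to 12840 to 26040 CPM in the treated memory line and 14310 to 23830 CPM in the untreated one. In wild type they summed to 22240 to 23660 CPM with azacytidine and 20730 to 29980 CPM without it. Untreated memory-line replicate 2 stood apart in the measures that follow. Multiply aligned reads made up 25.7% of its aligned reads and 6.49% to 13.6% of those of any other replicate. Its 2 seed markers, the storage protein gene CRC and the oleosin gene OLEO1, summed to 15.3 CPM, while no other replicate exceeded 0.430 CPM. The light-harvesting genes CAB1 (12910 CPM) and LHCB2.1 (624 CPM) were also highest there, against 4874 to 9114 and 63.6 to 274 CPM in the others. The green shoot markers RBCS1A, CA1, RCA and GLDP1 were not highest there.

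The upstream sequences are shown first and were searched for elements through which this family and its regulators are known to act. They are from the RefSeq TAIR10.1 assembly and cover the 250 bases before each annotated gene start, a window without the gene's own transcribed bases. The G-box CACGTG, a palindrome bound by several families of light and clock regulators, was found in the windows of 6 of the 10 members (60%), CCA1, LHY, RVE1, RVE2, RVE3 and RVE5. Of the windows of 27443 genes 6.49% held it. The windows of RVE3 and RVE5 lie wholly or partly under exons of neighbouring genes, so their sequences are not printed. The G-boxes of CCA1, LHY and RVE1, in capitals with 20 bases on each side, lie at chr2:19245378-19245423 on the plus strand, chr1:37926-37971 on the minus strand and chr5:5693078-5693123 on the minus strand.
CCA1: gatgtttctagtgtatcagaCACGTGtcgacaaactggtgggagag
LHY: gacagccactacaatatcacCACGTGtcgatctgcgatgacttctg
RVE1: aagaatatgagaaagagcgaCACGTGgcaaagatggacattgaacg

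The windows of RVE2 and RVE7, members whose levels are called different below, are shown whole. RVE4 is called below as well, but its window held no match to the motifs searched and is not shown. The RVE2 window (chr5:14753089-14753338, minus strand) held a G-box that starts 163 bases before the gene and a CCA1-binding site, AAAAATCT, that starts 244 bases before it, both in capitals. The RVE7 window (chr1:6308244-6308493, minus strand) held an evening element, AAATATCT, that starts 49 bases before the gene, in capitals.
RVE2: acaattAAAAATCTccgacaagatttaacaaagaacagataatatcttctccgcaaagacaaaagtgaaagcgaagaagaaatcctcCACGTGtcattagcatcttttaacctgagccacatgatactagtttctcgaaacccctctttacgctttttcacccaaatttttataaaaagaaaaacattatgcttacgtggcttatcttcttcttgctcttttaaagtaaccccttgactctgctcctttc
RVE7: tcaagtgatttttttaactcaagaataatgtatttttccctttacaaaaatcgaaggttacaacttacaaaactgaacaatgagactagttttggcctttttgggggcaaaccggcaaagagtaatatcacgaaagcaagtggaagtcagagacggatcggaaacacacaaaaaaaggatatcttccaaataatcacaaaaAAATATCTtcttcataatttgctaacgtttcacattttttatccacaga

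The CCA1-binding site was found in RVE2 and RVE6 (20% of members, against 6.69% of all windows). The evening element was found in RVE7 alone of the members (10%, against 4.79% of all windows). Both motifs were searched on both strands, with AGATTTTT and AGATATTT as the complements, and no match overlapped another. RVE4 and RVE8 held none of the 3 motifs in these windows. Of the 250 bases of the RVE4 window, 141 lie under exons of other genes. A match is a description of the letters and no evidence of binding.

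RVE2 was by far the most abundant transcript of the family per exon length. It had a lowest, median and highest level of 68.5, 94.2 and 169 CPM per kilobase of exon over the 10 replicates. RVE4, an activator of evening genes, followed at 14.4, 17.9 and 27.9, and RVE5 at 5.38, 6.79 and 8.87 CPM per kilobase. The ranges of RVE2 and RVE4 did not overlap, nor did those of RVE4 and RVE5. RVE2 made up a median of 53.7% of the CPM of the 10 members together.

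Below RVE5 the ranges of neighbours in the order overlapped. RVE6 had a median of 4.64 CPM per kilobase, RVE1 2.41, RVE7 1.90, CCA1 1.89, RVE8 1.34, LHY 0.586 and RVE3 0.311. CCA1 and LHY, the core repressors, were thus among the low members. For comparison, the evening gene TOC1, a repressor of CCA1 and LHY, ranged between 53.5 and 96.1 CPM per kilobase, and its lowest replicate lay above the highest of CCA1 (6.08) and of LHY (0.770). RVE3 rested on 0 to 22 counts per replicate. Its 0 counts in untreated wild-type replicate 3 allow a level of up to 0.221 CPM (3 counts, for counting error only). The library kit did not mark the strand, so reads cannot be told apart where genes overlap on opposite strands. Such overlap touches 30.3% of the exon bases of RVE5 (AT4G01290) and 11.2% of RVE1 (AT5G17305). RVE3 overlaps AT1G01510 on the same strand, over 4.09% of its exon bases, where strand would not separate reads. How the counter treated reads in overlaps is not given.

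**Figure D1:**
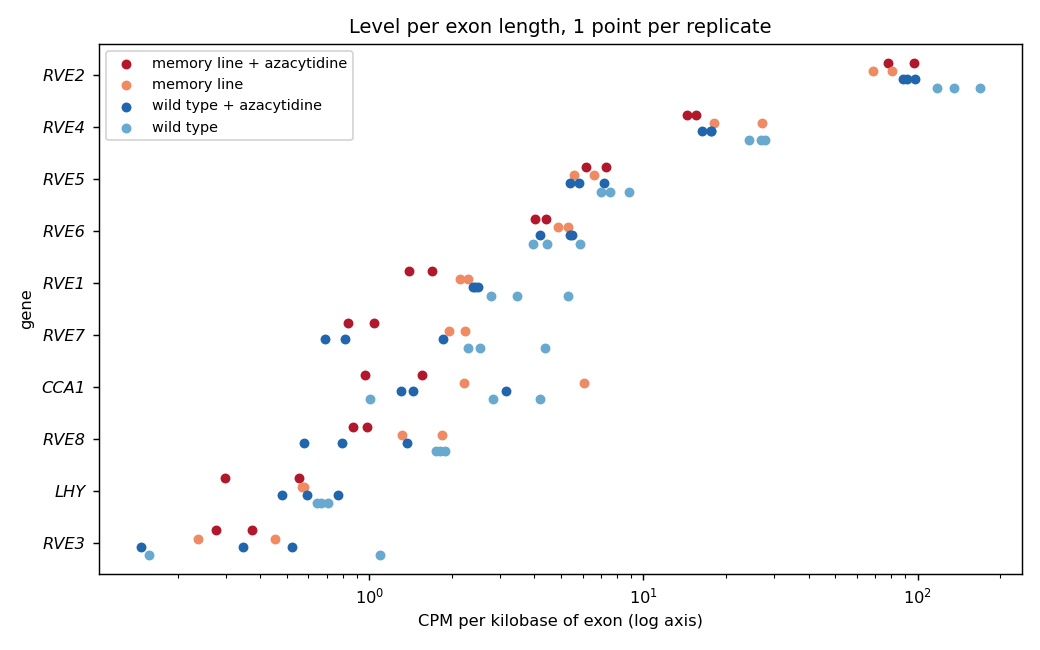
Level of the 10 genes in CPM per kilobase of exon on a log axis, 1 point per biological replicate coloured by group. RVE2 lies apart at the high end, with 68.5 to 169 CPM per kilobase, and the replicate of RVE3 with 0 counts cannot be drawn.

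CCA1 and LHY, close relatives with overlapping functions, varied to very different extents. CCA1 had 4.25 and 2.63 CPM in the treated memory line, 6.03 and 16.5 CPM in the untreated memory line, 3.92, 3.56 and 8.55 CPM in treated wild type, and 2.74, 11.4 and 7.72 CPM in untreated wild type. The highest CCA1 replicate was 6.30-fold above the lowest, and untreated wild type alone spanned 4.17-fold. LHY had 1.02 and 1.90 CPM in the treated memory line, 1.94 and 1.97 in the untreated memory line, 2.04, 2.63 and 1.65 in treated wild type, and 2.41, 2.21 and 2.28 in untreated wild type. Its whole span was 2.58-fold.

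The spread of CCA1 between untreated wild-type replicates was repeated in their technical libraries. In untreated wild type its level before TMM scaling was 2.41 to 2.74 CPM in the libraries of replicate 1, 10.3 to 13.2 in those of replicate 2 and 7.82 to 8.46 in those of replicate 3. The libraries of these 3 replicates did not overlap. LHY gave no such order: its libraries overlapped between untreated wild-type replicates, at 2.17 to 2.38, 1.76 to 3.01 and 1.59 to 2.68 CPM, on 6 to 25 counts a library. In treated wild type the CCA1 libraries of replicates 1 and 2 overlapped, at 2.54 to 4.60 and 2.61 to 4.18 CPM, and those of replicate 3 lay above. CCA1 libraries overlapped between the treated memory-line replicates and did not between the untreated ones.

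**Figure D2:**
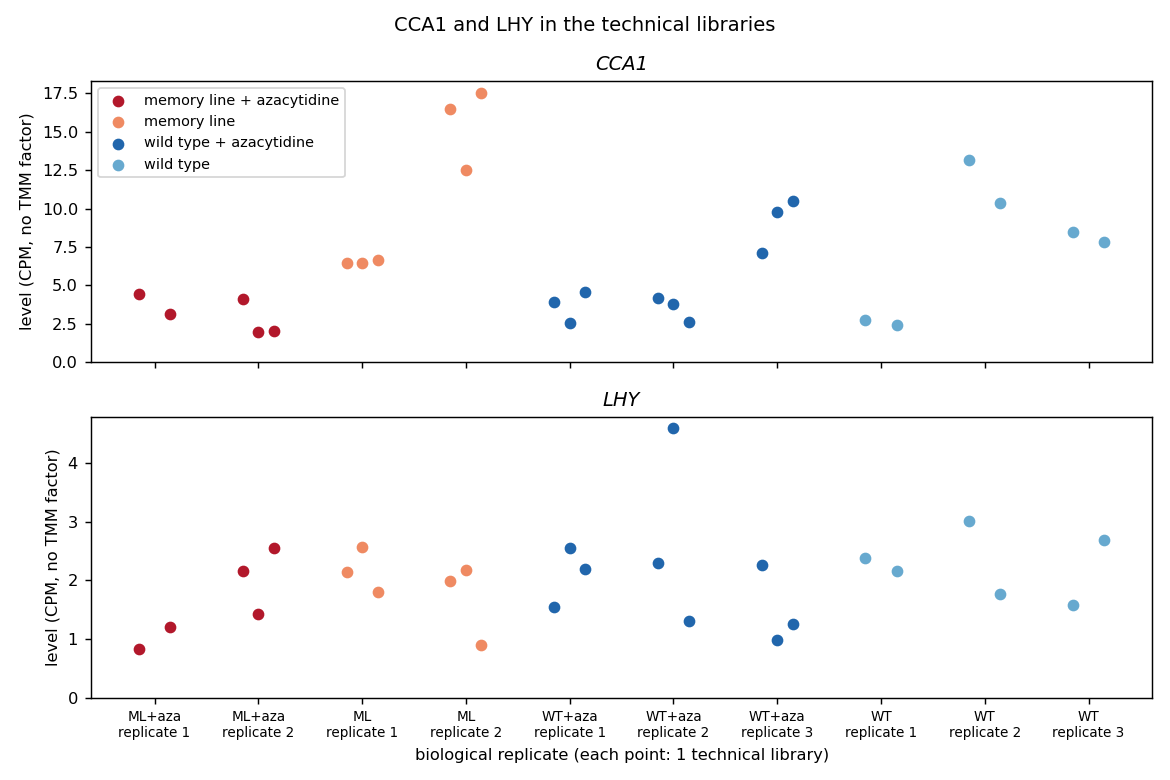
CCA1 (top) and LHY (bottom) in CPM without TMM scaling in each of the 26 technical libraries (points), grouped by biological replicate and coloured by group. The CCA1 libraries of untreated wild-type replicate 1 lie at 2.41 to 2.74 CPM and those of replicate 2 at 10.3 to 13.2 CPM, while LHY libraries overlap between those replicates.

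The genes most like each of 4 members over the 10 replicates were ranked by the root mean square difference between log2 CPM profiles centred on each gene's mean, over the 16794 genes that averaged 5 CPM or more. A smaller difference is a closer likeness. CCA1, whose own profile deviated from its mean by 0.83, was closest to AT3G54500 (LNK2, a coactivator of RVE8) at 0.33, followed by COL5, a relative of the flowering regulator CONSTANS, at 0.36 and the light-harvesting gene LHCB2.3 at 0.39. Its difference from LHY was 0.89. LHY, which deviated by 0.33, was closest to AT3G04140 at 0.14, AT2G46810 at 0.15 and the immune receptor gene RPS6 at 0.15. These 3 genes deviated from their own means by 0.34, 0.26 and 0.23. RVE8, which deviated by 0.54, was closest to AGP24, an arabinogalactan protein gene, at 0.14, AT1G12730 at 0.21 and RGL3, a repressor of gibberellin signalling, at 0.23. RVE7, which deviated by 0.78, was closest to AGP3 at 0.26 and to the root genes XTH14, a cell wall enzyme of root hairs, at 0.29 and PER64, an endodermal peroxidase, at 0.31. Between members the smallest difference was 0.27, for RVE2 and RVE5. These values describe 10 replicates in 4 groups and have no test.

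The first comparison was azacytidine against none in wild type. RVE2, RVE4 and RVE7 fell in treated plants, no member rose, and 9 of the 10 fold changes were below 0. The median over the family was -0.53 on the log2 scale, beside 0.0015 over all 22031 genes tested. Of all genes tested 6.39% were called in either direction and 3.37% were called lower, at an adjusted p under 0.05 in edgeR's quasi-likelihood test with Benjamini-Hochberg adjustment over all of them.

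RVE2 had 95.6, 86.5 and 89.9 CPM in treated wild type, against 166, 133 and 115 CPM in untreated wild type. The treated replicates lay close together and all below the lowest untreated one. RVE2 is a MYB factor whose raised expression is known to disturb clock rhythms. It fell by 0.61 (log2, SE 0.15, edgeR adjusted p = 0.0280). RVE4 had 37.0, 37.3 and 34.3 CPM in treated wild type, against 56.3, 58.7 and 51.3 CPM in untreated wild type. Both groups were tight and did not overlap. RVE4 also fell by 0.61 (SE 0.14, edgeR adjusted p = 0.0204).

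RVE7, first described as a gene that responds early to phytochrome, had 1.66, 1.40 and 3.77 CPM in treated wild type, against 5.15, 8.82 and 4.63 CPM in untreated wild type. Treated replicate 3 came nearest to the untreated range. With a decrease of 1.45 (SE 0.37, edgeR adjusted p = 0.0355) it had the largest change of the family in this comparison, on 18 to 112 counts per replicate.

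RVE8 and RVE1 were lower in all treated wild-type replicates but were not called. RVE8 had 1.36, 1.86 and 3.22 CPM in treated wild type, against 4.24, 4.10 and 4.41 CPM in untreated wild type (log2 fold change -0.99, SE 0.32, edgeR adjusted p = 0.0798). RVE1 had 4.82, 4.88 and 5.02 CPM in treated wild type, against 6.98, 10.7 and 5.59 CPM in untreated wild type (-0.66, SE 0.25, edgeR adjusted p = 0.126). With RVE2, RVE4 and RVE7 they made 5 of 10 members whose treated replicates all lay below the untreated ones, beside 15.2% of all genes tested.

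The other 5 members overlapped between the groups. RVE5 had 13.0, 12.1 and 16.2 CPM in treated wild type, against 16.9, 19.9 and 15.7 CPM in untreated wild type (-0.35, SE 0.16, edgeR adjusted p = 0.204). For CCA1 the log2 fold change was -0.45 with an interval of 2 standard errors from -1.62 to 0.72. For LHY that interval ran from -0.77 to 0.52 and for RVE6 from -0.32 to 0.47. For RVE3 it ran from -2.15 to 1.58, too wide to read.

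The 3 calls needed nearly all wild-type replicates. None of the 10 members was called when untreated replicate 1 or 2, or treated replicate 1 or 2, was left out: RVE2 then had adjusted p-values of 0.0827 to 0.121, RVE4 of 0.0692 to 0.0862 and RVE7 of 0.0706 to 0.167, all still lower. Without treated replicate 3, RVE7 and RVE8 (adjusted p = 0.0350) were called, and RVE2 (0.0753) and RVE4 (0.0676) were not. Without untreated replicate 3, RVE1 was called as well (adjusted p = 0.0408). With the first technical library of each replicate alone, RVE4 was not called (adjusted p = 0.0752). DESeq2 called RVE2, RVE4 and RVE7 too, and limma voom added RVE8 (adjusted p = 0.0193). Limma voom took the 26 technical libraries as observations, with a shared correlation among libraries of a replicate. Over all genes it called 3603 here, against 1408 in edgeR.

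**Figure D3:**
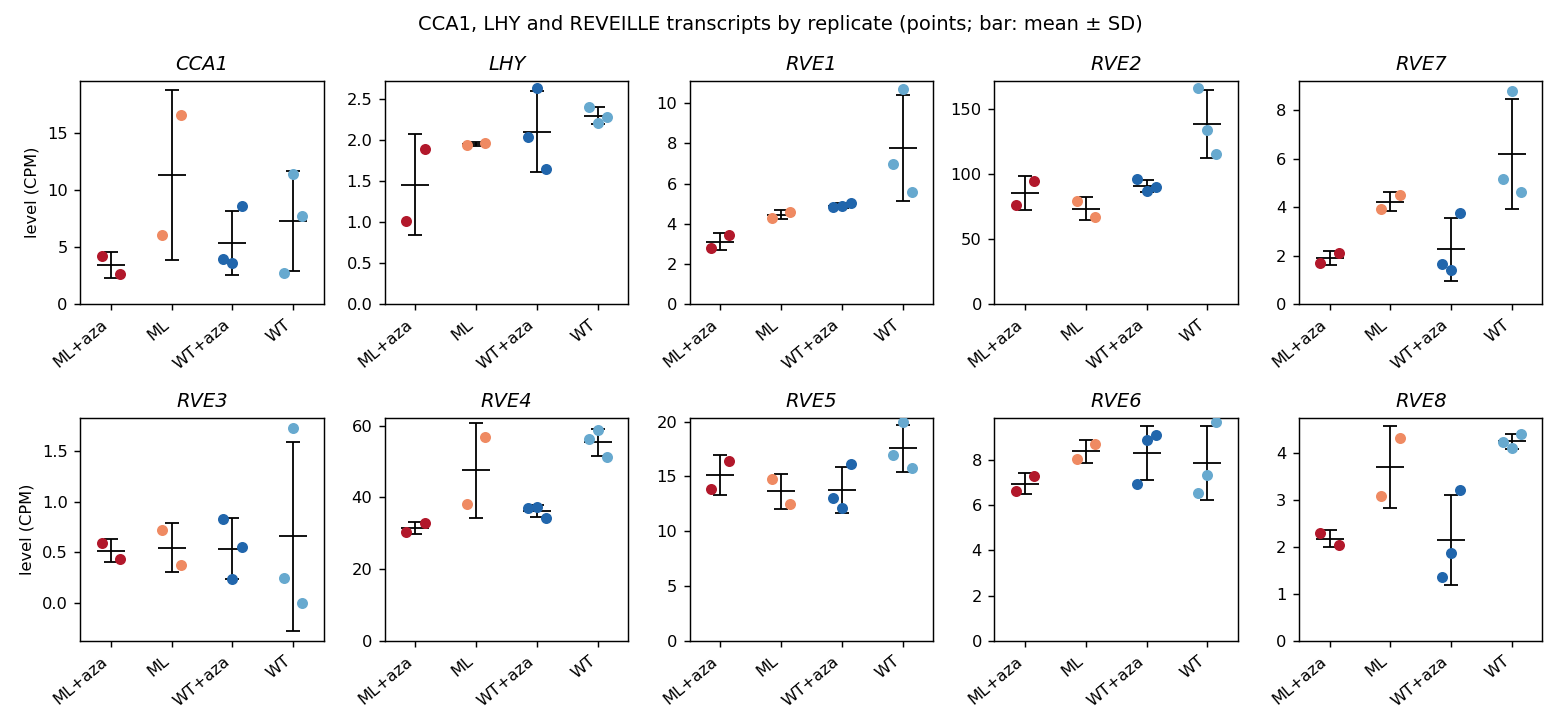
CPM of the 10 genes by biological replicate (points) with the mean and SD (bars), groups from left to right ML+aza (treated memory line, n = 2), ML (untreated memory line, n = 2), WT+aza (treated wild type, n = 3) and WT (untreated wild type, n = 3). RVE2 in untreated wild type, at 115 to 166 CPM, lies above all other groups, and CCA1 spans 2.63 to 16.5 CPM.

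Of the genes that regulate or follow the family few were called in treated wild type. Of 10 evening targets 1 fell, COR27, a cold- and night-regulated gene, with 77.4, 85.5 and 76.5 CPM in treated wild type, against 123, 126 and 108 CPM in untreated wild type (-0.57, SE 0.14, edgeR adjusted p = 0.0255), and the median of the list was 0.034. That call was lost without any single one of the wild-type replicates other than untreated replicate 3, with adjusted p-values of up to 0.108, and with the first technical library alone (0.0560). Over all genes tested in this comparison 5282 of 22031 had an unadjusted p under 0.05. DESeq2 called 1966 of 24249 genes and limma voom 3603 of 19881. None of the 5 repressors of CCA1 or LHY was called in edgeR, with 1 at an unadjusted p under 0.05, 0 in DESeq2 and 1 in limma voom. None of the 4 LNK coactivators was called in edgeR, DESeq2 or limma voom, and 0 had an unadjusted p under 0.05. Of 9 tested output genes, such as CDF1 and PIF4, none was called in edgeR, with 2 at an unadjusted p under 0.05, 1 in DESeq2 and 2 in limma voom. The 4 activators of CCA1 and the 8 genes that act on the proteins, casein kinase subunits and DET1, had 0 calls in all 5 comparisons in edgeR, DESeq2 and limma voom. At an unadjusted p under 0.05 there were 0 activators in any comparison, and there was 1 gene of the protein list, in wild type on azacytidine.

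Markers of carbon status and of root moved alongside. Of 6 genes raised in darkness or at low sugar 4 fell in treated wild type: SEN1 (-4.03), ASN1 (-3.38), BCAT2 (-2.19) and BGAL4 (-1.51), with edgeR adjusted p-values of 0.0117 to 0.0247. BCAT2 and SEN1 were not called when wild type alone was fitted (adjusted p = 0.0581 and 0.0587). SEN1 lost the call without untreated replicate 1 or any single treated replicate of wild type (edgeR adjusted p up to 0.0857). ASN1 lost it without untreated replicate 1 or 2 or any single treated replicate (up to 0.0959). BCAT2 also lost it without treated replicate 1 or 2 (up to 0.0714), and BGAL4 without treated replicate 1 (0.0540). SEN1, a gene induced by darkness and ageing, had 8.14, 14.1 and 10.9 CPM in treated wild type, against 163, 322 and 56.9 CPM in untreated wild type, where replicate 3 was the lowest. The 6 genes summed to 765 to 994 CPM in treated and 1159 to 1785 CPM in untreated wild type. Most of that was DIN10, which was not called here, at 625 to 815 CPM in treated and 864 to 1043 CPM in untreated wild type. Of 7 root markers 3 fell, the Casparian strip genes CASP1 (-1.01) and CASP2 (-1.40) and the peroxidase gene PER64 (-1.16), with edgeR adjusted p-values of 0.00752 to 0.0118. CASP1 lost the call without treated replicate 1 (adjusted p = 0.0525) and PER64 without treated replicate 1 or 2 (up to 0.0671). The 7 markers summed to 60.0 to 122 CPM in treated and 121 to 136 CPM in untreated wild type, with no marker at 0 throughout. Most of that was the iron transporter gene IRT1, which was not called here. Without it, a sum added after seeing the data, the other 6 reached 18.2 to 28.4 CPM in treated and 44.9 to 49.1 CPM in untreated wild type, with no overlap. XTH14 and PER64 are also the root genes closest to RVE7. The part of carbon status and of root tissue in the lower levels of RVE2, RVE4 and RVE7 was not tested.

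In the memory line, the comparison of azacytidine against none called no member in edgeR (0.74% of all genes tested were called), DESeq2 or limma voom. At an unadjusted p under 0.05 there were 3, CCA1, RVE4 and RVE7, all lower, beside 1979 of the 22031 genes tested. Without untreated replicate 2 the fold changes of these 3 were -0.82, -0.28 and -1.04. In 7 of the 10 members both treated replicates lay below both untreated ones, beside 16.1% of all genes tested. The median over the family was -0.46, beside 0.012 over all genes tested.

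CCA1 had 4.25 and 2.63 CPM in the treated memory line, against 6.03 and 16.5 CPM in the untreated memory line. Its fold change was the largest of the family, -1.71, with a standard error of 0.74 (edgeR adjusted p = 0.549), and it was -0.82 without untreated replicate 2. RVE7 had 1.70 and 2.12 CPM in the treated memory line, against 3.95 and 4.51 CPM in the untreated memory line (-1.14, SE 0.47, edgeR adjusted p = 0.481). Both pairs of replicates were close together for RVE7, while for CCA1 the untreated ones lay 2.75-fold apart.

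RVE4 had 30.4 and 32.8 CPM in the treated memory line, against 38.2 and 56.9 CPM in the untreated memory line (-0.59, SE 0.17, edgeR adjusted p = 0.198), and was called without untreated replicate 1 (-0.85, adjusted p = 0.0167). Without untreated replicate 2 it was -0.28. RVE8 had 2.30 and 2.04 CPM in the treated memory line, against 3.08 and 4.32 CPM in the untreated memory line (-0.76, SE 0.39, edgeR adjusted p = 0.609). LHY, RVE1 and RVE6 were the other 3 without overlap, with fold changes of -0.41, -0.51 and -0.27. RVE2 and RVE5 had fold changes above 0, and neither was called. RVE2 had 76.3 and 94.7 CPM in the treated memory line, against 79.3 and 67.1 CPM in the untreated memory line. The values overlapped, and its log2 fold change was 0.22 with an interval of 2 standard errors from -0.14 to 0.58.

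Most clock genes around the family had fold changes below 0 in the treated memory line, 1 of them called. All 10 evening targets had fold changes below 0 (median -0.60), none was called in edgeR, 7 had an unadjusted p under 0.05, and DESeq2 called 3 and limma voom 6. Over all genes tested in this comparison 1979 of 22031 had an unadjusted p under 0.05. DESeq2 called 367 of 23725 genes and limma voom 644 of 19881. Without untreated replicate 2 the median was -0.25 with 2 at an unadjusted p under 0.05, and without untreated replicate 1 it was -0.92 with 4 called, fits of this list added after seeing the data. PRR5, a repressor of CCA1 and LHY, had 37.8 and 28.0 CPM in the treated memory line, against 69.1 and 121 CPM in the untreated memory line (-1.53, SE 0.32, edgeR adjusted p = 0.0713). TOC1 and PRR5 stand in both lists. All 5 repressors were below 0 as well (median -1.11), with 0 calls in edgeR, 3 at an unadjusted p under 0.05, 2 in DESeq2 and 3 in limma voom. Without untreated replicate 2, 4 of the 5 were below 0 (median -0.97), and without untreated replicate 1 all 5 were (median -1.24), 1 of them called. Of the 4 coactivators LNK1 fell, with 11.1 and 9.34 CPM in the treated memory line, against 21.7 and 26.7 CPM in the untreated memory line (-1.25, SE 0.25, edgeR adjusted p = 0.0348). That call was lost without treated wild-type replicate 2 or 3, untreated memory-line replicate 2 or either treated memory-line replicate, with fold changes between -1.39 and -1.09 over all left-out replicates and adjusted p-values of up to 0.235. Under the replicate block it was lost as well (-1.24, adjusted p = 0.0769). LNK2 was at -1.84, LNK3 at -2.04 and LNK4 at -1.19, none of them called, and without untreated replicate 2 they were at -1.29, -0.45 and -0.061. Untreated memory-line replicate 2, the library with 25.7% multiply aligned reads and seed marker counts, was the highest of all 10 replicates for CCA1, TOC1, PRR5 and all 4 LNK genes. Without it PRR5 was at -1.07 (adjusted p = 0.287). Of the 6 carbon status genes 4 had fold changes below 0 and 2 above (median -0.45), and 1 had an unadjusted p under 0.05. None of these 6 was called in edgeR, and DESeq2 and limma voom each called 1, lower. Of the 7 root markers IRT1 rose by 3.89 (edgeR adjusted p = 0.0232). The call was lost without any single memory-line replicate or untreated wild-type replicate 3 (up to 0.253), with no filter on low counts (0.0587) and with the first technical library alone (0.0501). The other 6 were lower in both treated replicates and summed to 18.6 to 20.6 CPM in the treated memory line and 33.5 to 37.9 CPM in the untreated memory line, while all 7 summed to 85.4 to 109 CPM and 38.7 to 43.1 CPM there. The part of these features in the levels was not tested.

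**Figure D4:**
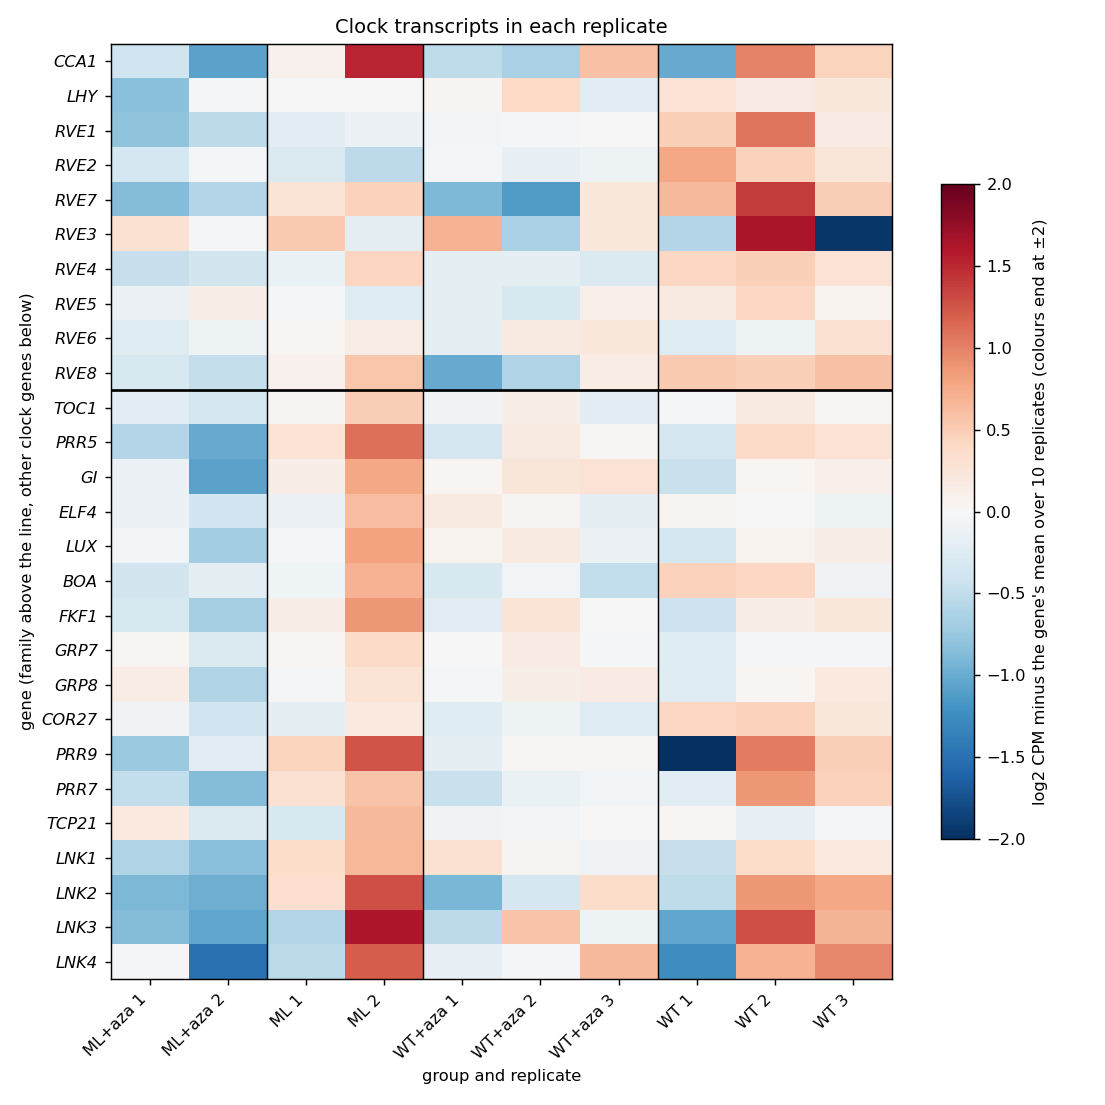
Log2 CPM minus each gene's mean over the 10 biological replicates (colour, ending at 2 units on either side), with the 10 family members above the line and repressors, evening targets and LNK coactivators below it. Columns run from treated memory line (ML+aza) through untreated memory line (ML) and treated wild type (WT+aza) to untreated wild type (WT), and untreated memory-line replicate 2 is red for CCA1 and most genes below the line.

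The memory line was set against wild type next, first without azacytidine. RVE2 was called and was lower in the memory line, at 79.3 and 67.1 CPM in the memory line, against 166, 133 and 115 CPM in wild type. Every wild-type replicate lay above both memory-line replicates. The change was -0.91 (log2, SE 0.17, edgeR adjusted p = 0.0243), and DESeq2 and limma voom also called it. Of all genes tested 1.17% were called in either direction and 0.477% were called lower.

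No other member was called between the untreated genotypes. RVE1 had 4.30 and 4.60 CPM in the memory line, against 6.98, 10.7 and 5.59 CPM in wild type (-0.80, SE 0.28, edgeR adjusted p = 0.187). RVE7 had 3.95 and 4.51 CPM in the memory line, against 5.15, 8.82 and 4.63 CPM in wild type (-0.55, SE 0.40, edgeR adjusted p = 0.555). With LHY and RVE5 these made 5 of 10 members whose memory-line replicates all lay below wild type, beside 15.3% of all genes tested. CCA1 was the member with the widest interval after RVE3: 0.61, with 2 standard errors from -0.64 to 1.86. The median over the family was -0.23, beside 0 over all genes tested.

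The RVE2 call rested on few replicates. It was lost without wild-type replicate 1 (-0.76, adjusted p = 0.0861), without wild-type replicate 2 (-0.93, adjusted p = 0.0866) and without memory-line replicate 2 (-0.80, adjusted p = 0.138). When the fit held the untreated groups alone it was -0.91 (adjusted p = 0.101). All 6 genes of carbon status were also lower in the memory line (median -1.08), with 0 calls in edgeR, 5 at an unadjusted p under 0.05, 4 in DESeq2 and 6 in limma voom. They summed to 611 to 994 CPM in the memory line and 1159 to 1785 CPM in wild type. Most of that was DIN10, at 461 to 723 CPM in the memory line and 864 to 1043 CPM in wild type. Over all genes tested in this comparison 3503 of 22031 had an unadjusted p under 0.05. DESeq2 called 867 of 22676 genes and limma voom 1660 of 19881. IRT1 fell by 3.96 (edgeR adjusted p = 0.0226), a call lost without wild-type replicate 1 or 2 or either memory-line replicate (up to 0.153). The 7 root markers summed to 38.7 to 43.1 CPM in the memory line and 121 to 136 CPM in wild type, most of that gap being IRT1, and the other 6 to 33.5 to 37.9 CPM in the memory line and 44.9 to 49.1 CPM in wild type. The part of these in the RVE2 level was not tested. Of the evening targets, repressors and coactivators none was called in edgeR or DESeq2, with 1, 0 and 0 at an unadjusted p under 0.05. In the memory line 9 of 10 evening targets (median 0.32), 5 of 5 repressors (0.30) and 4 of 4 coactivators (0.33) had fold changes above 0, and limma voom called 4 evening targets and 1 repressor higher and 1 evening target lower. Without memory-line replicate 2 these were 4 of 10 (median -0.010), 2 of 5 (-0.0061) and 1 of 4 (-0.57), and without memory-line replicate 1 they were 9 of 10 (0.56), 5 of 5 (0.69) and 4 of 4 (0.78).

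Between the treated genotypes no member was called in edgeR, where 0.0454% of all genes tested were called, in DESeq2 or in limma voom, and 1 had an unadjusted p under 0.05. That member was RVE1, with 2.81 and 3.43 CPM in the treated memory line, against 4.82, 4.88 and 5.02 CPM in treated wild type (-0.65, SE 0.30, edgeR adjusted p = 0.403). RVE4 was the only other member without overlap, at 30.4 and 32.8 CPM in the treated memory line, against 37.0, 37.3 and 34.3 CPM in treated wild type (-0.20, SE 0.16, edgeR adjusted p = 0.652). Together they were 2 of 10 members with all memory-line replicates lower, beside 15.5% of all genes tested. For RVE2 the groups overlapped and the fold change was -0.084, with 2 standard errors from -0.41 to 0.24. Of the evening targets, repressors and coactivators none was called in edgeR or DESeq2, while 2, 1 and 1 had an unadjusted p under 0.05 and limma voom called 2, 1 and 1, all lower. Over all genes tested in this comparison 2656 of 22031 had an unadjusted p under 0.05. DESeq2 called 275 of 21627 genes and limma voom 949 of 19881.

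The last comparison asked whether the azacytidine responses differed between the genotypes, as the log2 change in the memory line minus that in wild type. No member was called in edgeR (0.0182% of all genes tested were) or in DESeq2, and 1 had an unadjusted p under 0.05. This was RVE2, at 0.83 (SE 0.23, edgeR adjusted p = 0.392). Limma voom, with the 26 technical libraries as observations, called 389 genes here, against 4 in edgeR. Among its calls was RVE2 (0.78, limma voom adjusted p = 0.00815). Over all alternatives tried its adjusted p ran between 0.00815 and 0.762. RVE2 changed by 0.22 in the memory line and -0.61 in wild type, from untreated levels of 73.2 ± 8.6 CPM in the memory line (SD, n = 2) and 138 ± 26 CPM in wild type (SD, n = 3).

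For RVE4 the responses were -0.59 in the memory line and -0.61 in wild type, and their difference of 0.027 had an interval of 2 standard errors from -0.41 to 0.46. For RVE7 they were -1.14 in the memory line and -1.45 in wild type, with an interval of the difference from -0.89 to 1.51. CCA1, at -1.71 in the memory line and -0.45 in wild type, had an interval from -3.13 to 0.63. Among evening targets, repressors and coactivators 5, 1 and 1 differed in response at an unadjusted p under 0.05, none was called in edgeR or DESeq2, and limma voom called 4, 1 and 1, all lower in the memory line's response. All 6 carbon status genes had differences above 0 (median 0.91), 4 of them at an unadjusted p under 0.05. None of the 6 was called in edgeR or DESeq2, and limma voom called 2, both higher. Over all genes tested 1890 of 22031 had an unadjusted p under 0.05. DESeq2 called 76 of 21102 genes and limma voom 389 of 19881. The part of carbon status in the RVE2 difference was not tested. The intervals of the members leave room for differences as large as the responses themselves in every member but RVE4.

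**Figure D5:**
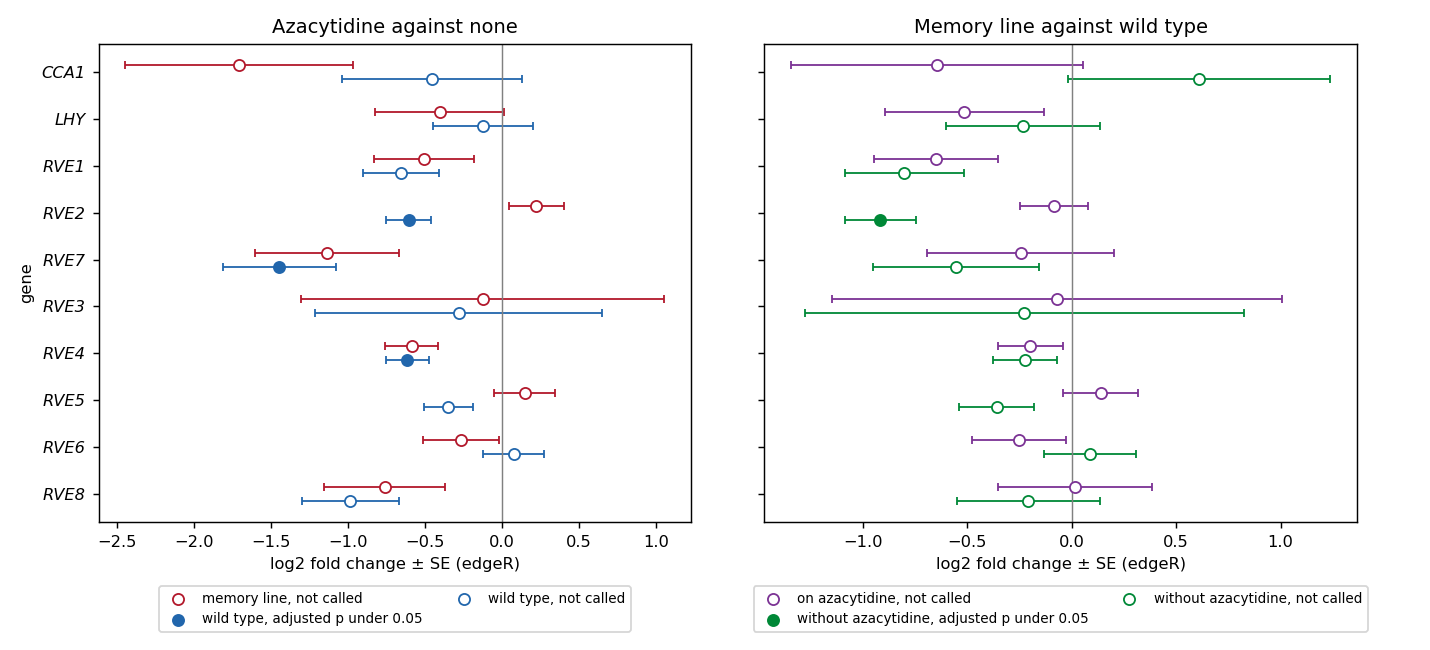
Log2 fold change with standard error of the 10 genes, for azacytidine against none in the memory line and in wild type (left) and for the memory line against wild type on and without azacytidine (right). Filled points passed an edgeR adjusted p under 0.05: RVE2, RVE4 and RVE7 in wild type on azacytidine, and RVE2 in the memory line without azacytidine.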

How the data were processed

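The authors deposited unnormalized gene counts, 1 table per technical library. The submitters' processing notes name TAIR10 and DESeq2, with no version or role. Aligner and counter: not given in the sources used here. Left out were 5 entries that name no gene: per replicate, reads in no gene were 48.3% to 49.3% of uniquely aligned reads. Libraries came from a TruSeq RNA v2 kit, per the labels' protocols, a kit without strand marking.

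Counts were summed over technical libraries into 10 biological replicates. Genes were filtered with filterByExpr by group (minimum count 10, minimum total 15), scaled by TMM and fitted together for all 4 groups with edgeR 4.0.16 (R 4.3.3; robust quasi-likelihood, no covariate). This procedure was tested on simulated data with the same spread for all genes and changes in treated wild type only. Those changes were larger than any member's in that comparison, so the test does not cover changes of the members' size. Each standard error was taken as log2 fold change over root F. CPM uses TMM-scaled library sizes. Exon lengths, positions and upstream sequences are from RefSeq TAIR10.1. Alternatives used DESeq2 1.42.0 and limma 3.58.1. In limma voom the technical libraries entered as observations, with a shared correlation among those of a replicate.

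The members and lists were chosen with earlier results of these data known. The naming rule took all members, up to 4 called genes per list and comparison, and for CCA1, LHY, RVE7 and RVE8 the 3 genes with the closest profiles. TOC1, PRR5, CAB1, DIN10, the uncalled LNK genes and the green shoot markers were named after their values were seen. COR28 was dropped from its list because the reference gives the identifier no such symbol. Same-numbered wild-type replicates deviated together for number 1 alone, at a correlation of 0.15, so numbers were not taken as pairs. This reading covered pairs within wild type only.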

Additional observations from a re-analysis of the deposited data

How the results depend on the processing

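Over the 50 member fold changes and the alternatives (another normalization, no or a stricter filter on low counts, DESeq2, limma voom on libraries, first library, only the groups compared, a replicate block, each replicate left out), 844 of 906 values kept direction and side of the threshold, 19 lost the call, 5 gained one and 38 changed sign. The causes were not tested. Members called under the replicate block were 3 for azacytidine in wild type, 0 in the memory line, 1 for the memory line without azacytidine, 0 on azacytidine and 0 for the difference between responses, as without it, while the coactivator LNK1 lost its call. Same-numbered replicates correlated at 0.15, 0.0011 and -0.0049 in wild type, where 2 of 6 samples correlated best with their own number, and at -0.12 in the memory line. Between the genotypes same-numbered replicates correlated at 0.011 to 0.14. Crossing the memory-line numbers, an alternative added after seeing the data, gave 213 calls over all genes for azacytidine in the memory line, against 179 in the uncrossed block and 163 without a block. Members called ranged over left-out replicates from 0 to 4 for azacytidine in wild type, 0 to 1 in the memory line and 0 to 1 for the memory line without azacytidine, which also had 0 with only the groups compared. The difference between responses had 1 in limma voom. Over all genes, calls ran from 432 to 3603 (1408 as reported) for azacytidine in wild type, 91 to 644 (163) in the memory line, 32 to 1660 (258) for the memory line without azacytidine, 1 to 949 (10) on azacytidine and 1 to 389 (4) for the difference, and the replicate block moved the 258 to 685, the 10 to 123 and the 4 to 11. Leaving out replicates turned the sign of uncalled fold changes only, with these lowest and highest values. Azacytidine in wild type: CCA1 -0.96 to 0.019, LHY -0.32 to 0.023, RVE3 -0.87 to 0.072, RVE6 -0.037 to 0.27. In the memory line: RVE3 -0.48 to 0.44. Memory line without azacytidine: CCA1 -0.28 to 1.17, RVE3 -0.82 to 0.13, RVE4 -0.53 to 0.032, RVE6 -0.026 to 0.28, RVE8 -0.46 to 0.019. Memory line on azacytidine: RVE2 -0.27 to 0.063, RVE3 -0.42 to 0.12, RVE5 -0.0091 to 0.27, RVE7 -0.50 to 0.32, RVE8 -0.23 to 0.43. Difference between responses: LHY -0.83 to 0.082, RVE1 -0.17 to 0.33, RVE3 -0.20 to 0.73, RVE4 -0.24 to 0.34, RVE7 -0.044 to 0.88, RVE8 -0.021 to 0.63. Other signs turned with the first library (RVE6 -0.022 without azacytidine, RVE7 0.12 and RVE8 -0.098 between treated genotypes, RVE8 -0.038 in the difference) and for RVE3 with the replicate block (-0.090 in the difference), crossed (-0.17 there, 0.0066 in wild type). Depth limits RVE3, at 0 to 22 counts a replicate, and LHY, at 12 to 34.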
